A study of Mus musculus with 2 samples.

Results

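The serum extracellular vesicle (EV) content of 10 miRNAs known as enriched in neurons or glia was examined in mice with an induced deletion of the insulin receptor in adipocytes. The miRNAs were mmu-miR-9-5p, mmu-miR-9-3p, mmu-miR-124-3p, mmu-miR-128-3p, mmu-miR-129-5p, mmu-miR-132-3p, mmu-miR-137-3p, mmu-miR-138-5p, mmu-miR-212-3p and mmu-miR-219a-5p, written below without the prefix. They were chosen by name for their known expression in the nervous system. Their values were not used for the choice, but earlier results of these data were known when it was made. All 10 were found among the 1847 miRNA rows of each deposited table. Both groups were male mice, treated from 7 weeks of age with 100 mg/kg tamoxifen on 5 consecutive days and sampled 3 days after the last dose. The iFIRKO mice carried Adipoq-CreERT2, a tamoxifen-inducible Cre recombinase driven by the promoter of the adipocyte gene Adipoq, and Insr flox/flox, so that the insulin receptor is deleted in adipocytes. The control mice are labelled WT, whereas the methods describe them as IR flox/flox mice. Each group was 1 library, made per the methods from the pooled serum of 7 mice, so no difference below has a replicate check. The tables hold no measure of the deletion itself, and the sources used here leave in doubt which group each table belongs to. Every direction below is therefore that of the deposited labels, and if the tables were exchanged each ratio would become its reciprocal.

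A miRNA is cut as a pair of arms, 5p and 3p, from the hairpin of a longer transcript, and in a cell 1 arm is usually loaded into Argonaute while the other is degraded. The loaded arm finds its target mRNAs through its seed, the bases 2 to 8 from the 5′ end. In the nervous system miR-124 and miR-9 are known for repressing non-neuronal and progenitor genes, miR-128, miR-129, miR-132, miR-137 and miR-138 for acting on neuronal excitability, dendrites and synapses, and miR-219 for promoting the maturation of oligodendrocytes. EVs in serum come from many tissues, and fewer vesicles of a cell type and less miRNA per vesicle cannot be told apart in these libraries.

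The mature sequences of the members are shown to make their seeds visible, since the seed decides which members can share targets. RefSeq (GRCm38.p6) held 9 of the 10, printed 5′ to 3′ with the seed in capitals.
miR-128-3p: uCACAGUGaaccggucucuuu
miR-132-3p: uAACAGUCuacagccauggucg
miR-212-3p: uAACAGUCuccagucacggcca
miR-137-3p: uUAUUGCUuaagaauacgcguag
miR-219a-5p: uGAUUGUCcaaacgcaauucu
miR-138-5p: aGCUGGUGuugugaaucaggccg
miR-9-5p: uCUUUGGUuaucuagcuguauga
miR-9-3p: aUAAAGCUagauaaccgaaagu
miR-129-5p: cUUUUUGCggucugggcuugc
miR-132-3p and miR-212-3p had the same seed and were identical at 17 of 22 positions, with the first difference at position 10 from the 5′ end. None of the other members found in RefSeq shared a seed with another member or with any of the 1596 listed miRNA names found there. The seed of miR-124-3p, which was not found, was not compared. The GC content of the 9 sequences ranged from 31.8% in miR-9-3p to 57.1% in miR-129-5p.

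The first question was how much of each member the serum EVs held. The deposited values were whole counts divided by the depth of the library, which was 3817902 counts in the control-labelled library and 2233498 counts in the iFIRKO-labelled library, a 1.71-fold difference. Levels are given as these counts and as counts per 1000000 (CPM). Counts from 2 to 9 were absent from both tables, and a count of 1 was therefore read as a floor that stands for fewer than 10 counts, which is under 2.62 CPM in the control-labelled library and under 4.48 CPM in the iFIRKO-labelled library. All 10 members were above the floor in both libraries, as were 1736 of the 1847 listed miRNAs. The lowest member was miR-124-3p with 16 counts in the control-labelled library. Intervals are 95% intervals and cover counting error only.

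miR-128-3p, which is abundant in neurons but also made by other tissues, stood far above the rest. It had 30444 counts (7974 CPM) in the control-labelled library and 21986 counts (9844 CPM) in the iFIRKO-labelled library, the 29th and 23rd highest of the listed miRNAs. It made up 97.4% and 97.0% of the counts of the 10 members. Together the members took 0.819% of the control-labelled library (95% Wilson interval 0.810 to 0.828) and 1.01% of the iFIRKO-labelled library (1.002 to 1.028). Without miR-128-3p the remaining 9 summed to 806 counts (211 CPM, Wilson interval 197 to 226) and 678 counts (304 CPM, 282 to 327).

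The other 9 members were scarce. miR-132-3p, made in neurons in response to activity, had 203 counts (53.2 CPM) in the control-labelled library and 120 counts (53.7 CPM) in the iFIRKO-labelled library. miR-137-3p, a regulator of neuronal maturation, had 173 counts (45.3 CPM) and 176 counts (78.8 CPM). The oligodendrocyte miRNA miR-219a-5p had 129 counts (33.8 CPM) and 87 counts (39.0 CPM). These 3 were the best measured of the scarce members, and of them only miR-137-3p had a ratio between the libraries whose counting interval, given below, excluded 1. miR-138-5p, known for limiting dendritic spine size, had 90 counts (23.6 CPM) and 75 counts (33.6 CPM). miR-212-3p had 48 counts (12.6 CPM) and 73 counts (32.7 CPM), and it was one of the members whose raw count was higher in the shallower library. The arms of miR-9, which acts in neural progenitors, were close to each other. miR-9-5p had 62 counts (16.2 CPM) and 43 counts (19.3 CPM), and miR-9-3p had 45 counts (11.8 CPM) and 39 counts (17.5 CPM). miR-129-5p, tied to neuronal excitability, had 40 counts (10.5 CPM) and 32 counts (14.3 CPM). miR-124-3p, the most neuron-restricted of the list and among the most abundant miRNAs of the brain, was the lowest member in the control-labelled library, with 16 counts (4.19 CPM), and had 33 counts (14.8 CPM) in the iFIRKO-labelled library.

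**Figure D1:**
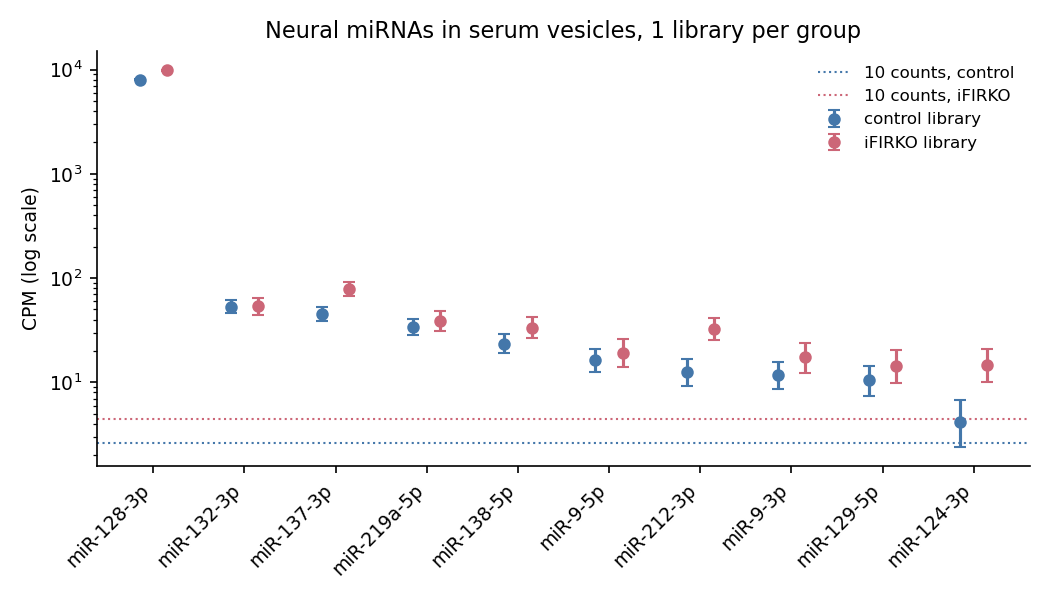
Level of the 10 neural miRNAs in each library in CPM on a log axis, with exact Poisson 95% intervals for counting error and dotted lines at 10 counts. miR-128-3p lies at 7974 and 9844 CPM, and the other 9 lie between 4.19 and 78.8 CPM.

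In the order of levels, miR-128-3p was separated from the next member in both libraries. Of the 9 neighbouring pairs in that order, 7 had overlapping intervals in the control-labelled library and 7 in the iFIRKO-labelled library, so most of the order below miR-128-3p was not resolved by the depth. The exceptions below miR-128-3p were miR-124-3p, separated from miR-129-5p at the bottom of the control-labelled library, and miR-137-3p, separated from miR-132-3p near the top of the iFIRKO-labelled library. Against the median of all 1847 miRNAs (9.69 CPM in the control-labelled library and 21.0 CPM in the iFIRKO-labelled library), 9 members were higher in the control-labelled library and 6 in the iFIRKO-labelled library.

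The list was set beside markers of tissues known to feed serum EVs. Erythroid miRNAs (6, among them miR-451a) took 5.35% of the control-labelled library and 3.56% of the iFIRKO-labelled library. The 4 liver miRNAs took 12.1% and 20.2%, the 4 platelet and leukocyte miRNAs 4.84% and 4.19%, and the 3 muscle miRNAs 1.07% and 0.983%. All 6 erythroid and all 4 platelet and leukocyte miRNAs had a ratio of iFIRKO to control below 1 under the deposited labels. All 4 liver miRNAs had one above 1, and of the 3 muscle miRNAs 2 were below 1 and 1 above. Most liver counts were miR-122-5p, with 417919 of 460346 and 417108 of 451011. On this deposited scale 88.1% of all listed miRNAs were above 1, but of the 118 with a mean count over 1000 in the 2 libraries, 70 were below 1. With TMM, a scaling described below, all of these marker miRNAs were below 1. The liver ones then had ratios from 0.748 to 0.944, and miR-206-3p, the muscle miRNA above 1, had 0.720. These directions too would turn if the tables were exchanged. The part of these differences in the neural values was not tested. The defining neuronal marker miR-124-3p had 16 and 33 counts, against a lowest measurable count of 10. The tissue of origin was not measured, so the name of the list says where these miRNAs are known from and not which tissue released them here.

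The second question was how the members differed between the libraries. On the deposited scale and labels all 10 had a ratio of iFIRKO to control above 1, as had 88.1% of all listed miRNAs. The ratio was over the 1.5-fold threshold of the study for 3 members (miR-124-3p, miR-212-3p and miR-137-3p), where 66.3% of all listed miRNAs were over 1.5-fold higher. No member was over 1.5-fold lower, against 3.03% of all listed miRNAs. With the tables exchanged, 0 members would be over 1.5-fold higher and 3 over 1.5-fold lower. The median log2 ratio of the members was 0.48, and that of all listed miRNAs was 0.88. The median was 0.51 without miR-128-3p, an alternative added after the data were seen.

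miR-124-3p had the largest ratio of the members, 3.53 (95% interval 1.89 to 6.86), from 16 and 33 counts. The ratio of miR-212-3p was 2.60 (1.78 to 3.82) and that of miR-137-3p was 1.74 (1.40 to 2.16). The interval of these 3 lay above 1, but only those of miR-124-3p and miR-212-3p lay above 1.5. miR-138-5p had a ratio of 1.42 (1.03 to 1.96), and miR-128-3p one of 1.23 with a narrow interval (1.21 to 1.26) that rests on its high count. The intervals of the remaining 5 included 1. They ran from a ratio of 1.01 for miR-132-3p (0.799 to 1.27) to 1.48 for miR-9-3p (0.940 to 2.33), so a difference was not detectable for these at this depth.

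**Figure D2:**
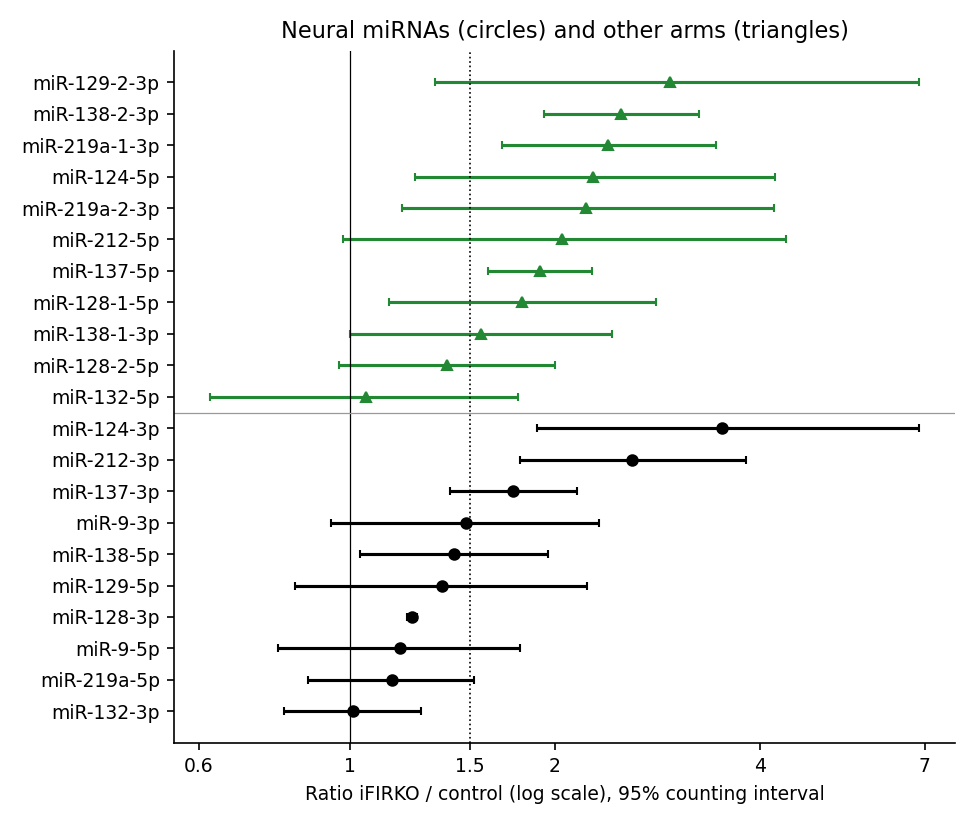
Ratio of the iFIRKO-labelled library to the control-labelled library on a log axis with 95% counting intervals, for the 10 neural miRNAs (circles) and 11 other arms of their hairpins (triangles). A solid line marks 1 and a dotted line 1.5. The intervals of 5 members lie above 1, and no interval lies below it.

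The reads of the libraries were also compared by a two-sided Fisher's exact test per miRNA, with Benjamini-Hochberg adjustment over the 1736 miRNAs above the floor in both. It sets 1 pool of reads against another and says nothing of the spread within a genotype. At an adjusted p under 0.05, 5 members were higher in the iFIRKO-labelled library (miR-124-3p, miR-128-3p, miR-137-3p, miR-138-5p and miR-212-3p) and 0 were lower, where 60.5% of the miRNAs tested (1050) were higher and 4.84% (84) lower. Fisher's exact test gave miR-138-5p an adjusted p of 0.038, and miR-124-3p 6.5e-05. With library sizes from TMM, a scaling that centres the ratios of most miRNAs on 1, an exact binomial test called 0 members higher and 3 lower (miR-128-3p, miR-132-3p and miR-219a-5p), against 11.8% and 17.7% of the miRNAs tested.

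Because ratios moved with abundance in these libraries, members were read beside miRNAs of like count. Of 1350 miRNAs whose mean count lay from 10 to 100, 76.7% were over 1.5-fold higher in the iFIRKO-labelled library and the median log2 ratio was 1.01. Of the 6 members in that class 2 were over 1.5-fold higher, and their median log2 ratio was 0.54. In the class from 100 to 1000 counts, 47.0% of 302 miRNAs were over 1.5-fold higher (median log2 ratio 0.53), and so was 1 of 3 members (median log2 ratio 0.21). In the class over 1000 counts, 2.54% of 118 miRNAs were over 1.5-fold higher, and miR-128-3p was not.

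Within the class from 10 to 100 counts the members fell in its upper and its lower part. A larger ratio than that of miR-124-3p was found for 13.3% of the class, and a larger one than that of miR-212-3p for 25.9%. The other 4 lay in the lower part of the class, with 77.2% of the class above miR-9-3p, 80.4% above miR-138-5p, 84.4% above miR-129-5p and 91.6% above miR-9-5p. In its own class miR-132-3p had 77.8% of the miRNAs above it, miR-219a-5p 67.9% and miR-137-3p 35.1%. miR-128-3p was in the upper part of the abundant miRNAs, with 10.2% above it.

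**Figure D3:**
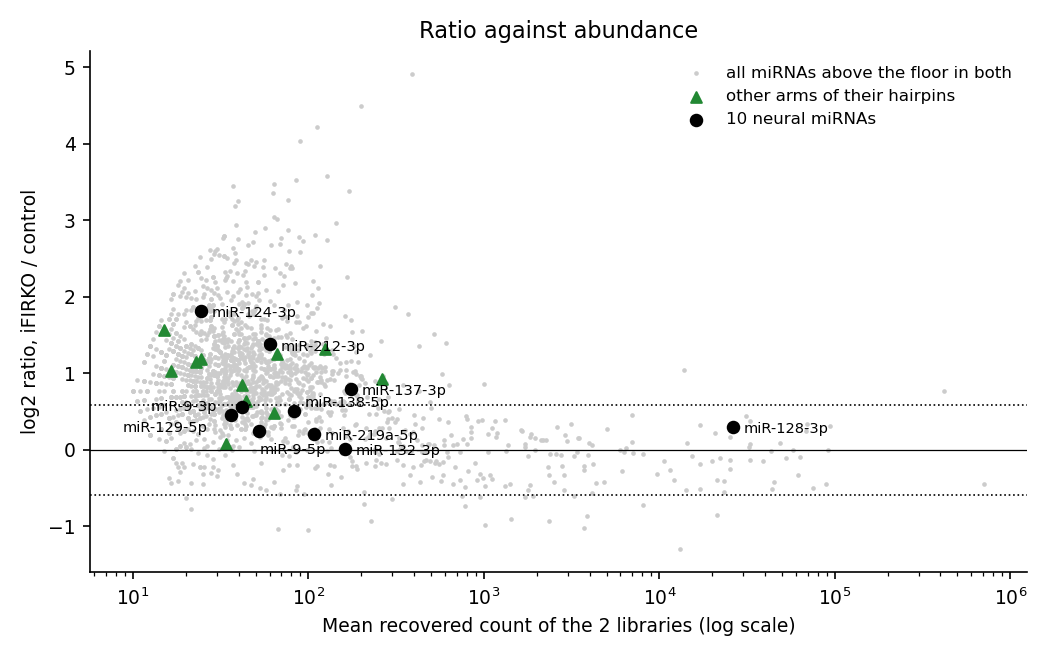
log2 ratio of iFIRKO to control against the mean count of the libraries (log axis) for the 1736 miRNAs above the floor in both (grey), the 10 neural miRNAs (black) and the other arms of their hairpins (green triangles). Dotted lines mark 1.5-fold. The grey cloud is centred above 0 at low counts, and most members at low counts lie in its lower part.

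The direction of most members depended on the scaling. Relative to miR-148a-3p, the reference miRNA of the study for RT-PCR, whose own ratio was 1.16, 8 members were above 1 and 2 below, where 82.0% of all listed miRNAs were above 1. With a median-of-ratios scaling, taken over miRNAs whose mean count reached 100, 7 were above 1 and 3 below, where 80.5% of all were above 1. These scalings lowered all log2 ratios by 0.22 and 0.27. With TMM, which lowered all log2 ratios by a shift of 0.85, 2 were above 1 (miR-124-3p at 1.95 and miR-212-3p at 1.44) and 8 below, with miR-132-3p lowest at 0.559, where 51.8% of all were above 1. Under TMM the 1.5-fold threshold was passed upwards by 1 member and downwards by 3, against 21.0% and 19.5% of all listed miRNAs. miR-124-3p and miR-212-3p were thus above 1 under each of these scalings. This is not particular to them, since 51.8% of all listed miRNAs were above 1 with TMM, the largest of these shifts. The exact binomial test with TMM library sizes called neither of them higher. The spacing between members stayed the same because a scaling multiplies every ratio alike.

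**Figure D4:**
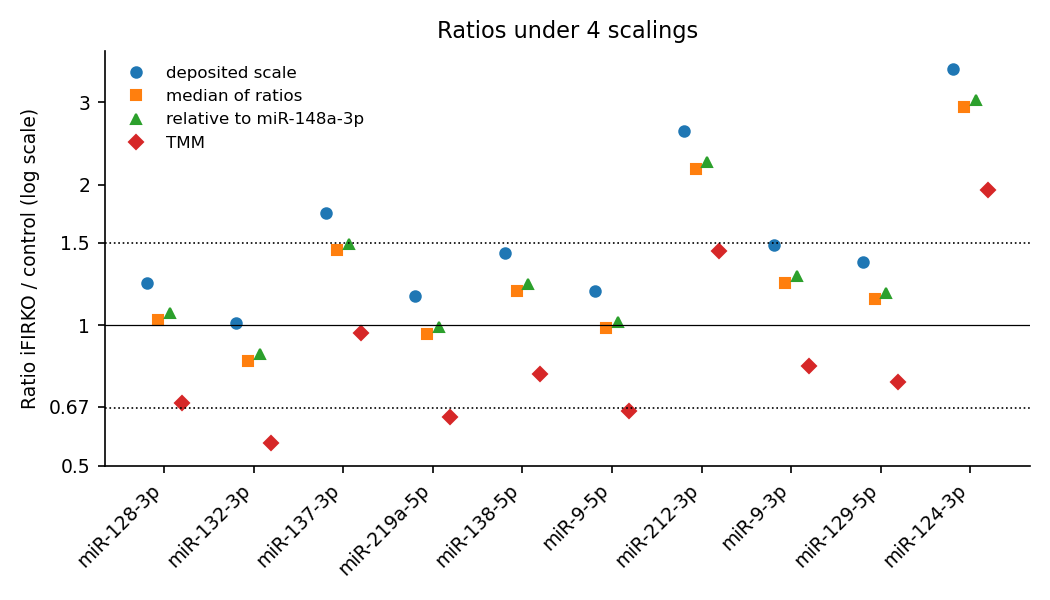
Ratio of iFIRKO to control of the 10 neural miRNAs on a log axis under 4 scalings. The solid line marks 1 and the dotted lines 1.5-fold in either direction. miR-124-3p and miR-212-3p stay above 1 under each, where 51.8% of all listed miRNAs are above 1 with TMM. miR-132-3p goes from 1.01 on the deposited scale to 0.559 with TMM. Intervals are not drawn.

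Quotients of members within a library do not depend on the scaling. miR-212 and miR-132 are neighbours, with the hairpin Mir212 on chromosome 11 from 75173388 to 75173478 and Mir132 from 75173682 to 75173747, both on the plus strand (GRCm38.p6) and 203 bases apart. Both lie in an intron of the non-coding gene 1700016P03Rik on the same strand (GENCODE M21). Their 3p arms share the seed AACAGUC, and the values of these arms differed in how they moved. miR-132-3p had 4.23 counts per count of miR-212-3p in the control-labelled library (95% interval 3.07 to 5.92) and 1.64 in the iFIRKO-labelled library (1.22 to 2.23), and these intervals did not overlap. miR-132-3p lies in the class from 100 to 1000 counts (median log2 ratio 0.53) and miR-212-3p in that from 10 to 100 (1.01). The part of this trend with abundance in the quotient was not tested. For the 5p arms of the same hairpins the quotient was 2.80 (1.52 to 5.44), from 42 and 15 counts, and 1.44 (0.762 to 2.80), from 26 and 18 counts, and these intervals overlapped. Of 9 chosen quotients between arms or members, the one of miR-132-3p to miR-212-3p was the only one whose intervals were apart. The choice left out miR-219a-5p and miR-129-5p against their other arms, whose shares, given below, also had intervals apart.

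The other arms of the hairpins, which the choice of members did not use, were examined next. In the annotation several members come from more than 1 hairpin, so their counts cannot be assigned to a locus. miR-9-5p and miR-9-3p each have 3 hairpins, and miR-128-3p, miR-129-5p, miR-138-5p and miR-219a-5p have 2 each, whereas their other arms often differ in sequence between hairpins. These arms are shown for miR-128, miR-138 and miR-137 because they distinguish the loci or exceed the member, with bases 2 to 8 in capitals (RefSeq, GRCm38.p6).
miR-128-1-5p: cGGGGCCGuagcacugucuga
miR-128-2-5p: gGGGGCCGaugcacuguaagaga
miR-138-1-3p: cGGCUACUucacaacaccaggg
miR-138-2-3p: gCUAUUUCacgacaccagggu
miR-137-5p: aCGGGUAUucuuggguggauaau

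For miR-128 the listed arm made up nearly all counts, 99.6% in the control-labelled library (95% Wilson interval 99.56 to 99.70) and 99.5% in the iFIRKO-labelled library (99.45 to 99.63). Both loci gave counts. miR-128-1-5p, from Mir128-1 in an intron of R3hdm1 (chromosome 1, 128202361 to 128202430, plus strand), had 41 and 43 counts, and miR-128-2-5p, from Mir128-2 in an intron of Arpp21 (chromosome 9, 112118636 to 112118711, minus strand), had 70 and 57 counts. The quotient of the second to the first was 1.71 (1.15 to 2.58) in the control-labelled library and 1.33 (0.877 to 2.02) in the iFIRKO-labelled library. The 3p arms of miR-132 and miR-212 also led their hairpins. miR-132-3p made up 82.9% (77.6 to 87.1) and 82.2% (75.2 to 87.5) of the counts of both arms, and miR-212-3p 76.2% (64.4 to 85.0) and 80.2% (70.9 to 87.1).

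For miR-137 and miR-138 the listed arm did not lead. miR-137-3p, the arm known to act in neurons, made up 41.2% (36.6 to 46.0) of the counts of Mir137 in the control-labelled library and 39.0% (34.6 to 43.6) in the iFIRKO-labelled library. miR-137-5p had 247 counts (64.7 CPM) and 275 counts (123 CPM), which was above miR-137-3p in both. Mir137 (chromosome 3, 118433857 to 118433929, plus strand) overlaps an exon of the non-coding gene Gm26871. miR-138-5p made up 38.0% (32.0 to 44.3) and 28.3% (23.2 to 34.0). Its counterpart miR-138-2-3p, from Mir138-2 on chromosome 8 (94324311 to 94324381, plus strand, within an exon of the lincRNA C78859), had 101 counts (26.5 CPM) against 148 counts (66.3 CPM), which gives a ratio of 2.50 (1.93 to 3.26). miR-138-1-3p, from Mir138-1 on chromosome 9 (122682876 to 122682974, plus strand, within an exon of the pseudogene Gm47135), had 46 and 42 counts, a ratio of 1.56 (1.002 to 2.42). The arms of miR-124 were about equal, with 16 and 33 counts of miR-124-3p against 21 and 28 counts of miR-124-5p.

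The listed arm's share differed beyond its intervals between the libraries for 2 of 9 families. miR-219a-5p made up 63.2% (56.4 to 69.6) of the counts of its arms in the control-labelled library and 45.8% (38.9 to 52.9) in the iFIRKO-labelled library. The interval of its ratio included 1 (1.15, 0.868 to 1.52), whereas miR-219a-1-3p had 55 counts (14.4 CPM) and 77 counts (34.5 CPM), with a ratio of 2.39 (1.67 to 3.45). These arms lie in different count classes. In the class from 10 to 100 counts 32.0% of miRNAs had a larger ratio than miR-219a-1-3p, and miR-219a-5p lies in the class from 100 to 1000. miR-129-5p made up 65.6% (53.0 to 76.3) and 41.6% (31.2 to 52.7), with miR-129-1-3p, at the floor in the control-labelled library, counted there as 10. For the other 7 families the intervals overlapped.

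**Figure D5:**
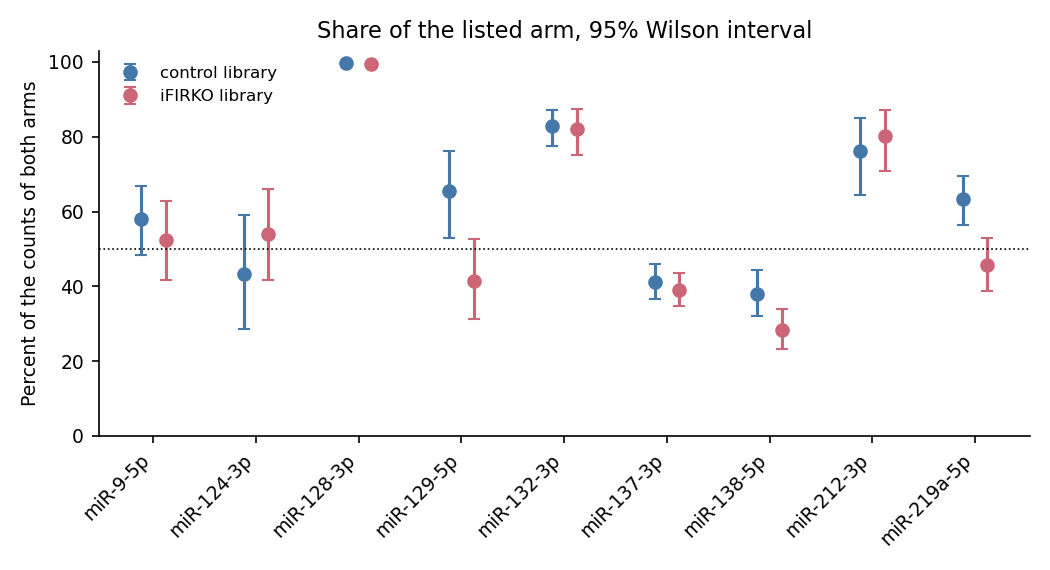
Percent of the counts of both arms that belonged to the listed arm, per miRNA family and library, with 95% Wilson intervals, where miR-129-1-3p at the floor in control is counted as 10. miR-128-3p is at 99.6% and 99.5%, and miR-137-3p and miR-138-5p are below the dotted line at 50 in both libraries.

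The 12 other arms had a median log2 ratio of 1.09, and 10 of them were over 1.5-fold higher in the iFIRKO-labelled library, where 66.3% of all listed miRNAs were. miR-129-1-3p, with 26 counts in the iFIRKO-labelled library, was at the floor in the control-labelled library and at least 4.44-fold higher, a value counted from 10 counts there. The median was 1.04 without it. In the class from 10 to 100 counts 8 of 10 other arms were over 1.5-fold higher, close to the 76.7% of the class, and 2 of 6 members were. The exceptions were miR-132-5p at 1.06 (0.623 to 1.77) and miR-128-2-5p at 1.39 (0.964 to 2.003). With TMM 2 of the 12 were over 1.5-fold higher, against 21.0% of all listed miRNAs, and 8 were above 1, against 51.8%.

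Further miRNAs known from neurons or glia were taken from a list of 9. Of these, 6 were over 1.5-fold higher in the iFIRKO-labelled library, 0 were over 1.5-fold lower, and the median log2 ratio was 0.74. Of all listed miRNAs 66.3% were over 1.5-fold higher and the median log2 ratio was 0.88, so the share of this list was near the background. The more abundant ones were not among the 6. miR-7a-5p, known from neurons and endocrine cells, had 1540 counts (403 CPM) against 694 counts (311 CPM) and a ratio of 0.770 (0.703 to 0.843). miR-218-5p, a motor neuron miRNA, was nearly level, with 404 counts (106 CPM), 235 counts (105 CPM) and a ratio of 0.994 (0.843 to 1.17). miR-338-3p, an oligodendrocyte miRNA like miR-219a-5p, had 265 and 174 counts, a ratio of 1.12 (0.922 to 1.36). The other 6, with 13 to 108 counts in the control-labelled library, had ratios from 1.65 (miR-384-5p) to 2.10 (miR-153-3p). With TMM the ratio of miR-7a-5p was 0.426 and that of miR-218-5p was 0.550.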

How the data were processed

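Libraries of serum EV RNA were prepared with QIAseq chemistry, sequenced on a NextSeq500 and analysed by the authors on the GeneGlobe Data Analysis Center. The genome build was mm10 per the submitters' processing notes. The aligner, the miRNA annotation and the use of molecular identifiers are not given in the sources used here. The deposited signal is 1 normalized value per miRNA. Of the deposited values, 100.0% in each table came out as whole multiples (within 0.01) of 1 step, from which counts and the depth were recovered. Each miRNA row was taken under its listed name. Members and lists were chosen with earlier results of these data known. The rule for named miRNAs covered all members, their other arms, seed mates, 9 further neural miRNAs and miR-148a-3p.

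The ratio of deposited values was used with no pseudocount and a threshold of 1.5-fold. Its 95% interval came from the Clopper-Pearson interval of the iFIRKO share of both counts, and shares have Wilson intervals. Fisher's exact test was run in scipy 1.17.1, and TMM factors came from edgeR 4.0.16 in R 4.3.3. Calculations were tested on simulated data. Alternatives were the floor at 10 counts, 4 other scalings, 1 CPM added, filters at a mean count of 10 and 100, and a 2-fold threshold. Sequences and hairpins are from RefSeq GRCm38.p6, the build also called mm10, and genes at the hairpins from GENCODE M21.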

Additional observations from a re-analysis of the deposited data

How the results depend on the processing

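No paired analysis was possible because there was 1 library per group, and leaving out a library was not possible for the same reason. With TMM the number of members over 1.5-fold higher went from 3 to 1, the number over 1.5-fold lower from 0 to 3, and the median log2 ratio from 0.48 to -0.37, while the median of all listed miRNAs went from 0.88 to 0.029. The ratios of miR-128-3p, miR-137-3p and miR-138-5p were then below 1, at 0.683, 0.962 and 0.788. In the comparison of reads by exact tests, TMM library sizes changed 5 members higher and 0 lower to 0 higher and 3 lower. These shifts follow from 1 factor of 1.81 applied to every miRNA. A mean count of at least 100 left 4 members, of which 1 was over 1.5-fold higher. Without miR-128-3p the members took 0.0211% of the control-labelled library and 0.0304% of the iFIRKO-labelled library. The other alternatives left the counts of members within 1.5 times and the median log2 ratio between 0.21 and 0.51. A member with 16 to 90 counts carries a counting error that its ratio shows in full.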

Other observations

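The hairpins of miR-219a and miR-129 have partners on the opposite strand, and these were chosen after their values were seen. Mir219b (chromosome 2, 29845647 to 29845711, plus strand) lies within Mir219a-2, and Mir219c (chromosome 17, 34025012 to 34025071, plus strand) within Mir219a-1. miR-219b-5p had 62 counts in the control-labelled library and 99 counts in the iFIRKO-labelled library, a ratio of 2.73 (95% interval 1.97 to 3.81), whereas miR-219a-5p had a ratio of 1.15 (0.868 to 1.52). miR-219c-5p had 19 and 32 counts, a ratio of 2.88 (1.58 to 5.38), and miR-219c-3p 28 and 18 counts, a ratio of 1.10 (0.572 to 2.06). These arms lie in the class from 10 to 100 counts, and miR-219a-5p lies in that from 100 to 1000. A larger ratio in their class was found for 23.0% beside miR-219b-5p, 20.1% beside miR-219c-5p and 94.0% beside miR-219c-3p. Mir129b (chromosome 2, 94241378 to 94241442, plus strand) lies within Mir129-2. Its arms went apart, since miR-129b-5p had 22 and 12 counts (ratio 0.932, 0.421 to 1.97) and miR-129b-3p had 13 and 46 counts (ratio 6.05, 3.21 to 12.2). Of the 6 arms of these opposite-strand hairpins, 4 were over 1.5-fold higher in the iFIRKO-labelled library, where 66.3% of all listed miRNAs were.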
